A study of Mus musculus with 6 samples.

Results

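A set of 10 cytokine genes were followed in bone marrow-derived macrophages: Tnf, the interleukin genes Il1a, Il1b, Il6, Il10, Il12b, Il18 and Il23a, the antagonist gene Il1rn, and Osm. They were taken by symbol, with no use of their values, and all 10 were found among the 26778 genes of the authors' deposited table. The macrophages were grown for 7 days from marrow of C57BL/6 mice, then kept in starvation medium under hypoxia (2% oxygen, 6 h). The 3 libraries of one group came from Flt1+/+ mice (wild type) and the 3 of the other from mice labelled Flt1+/- (heterozygous for the gene of VEGF receptor 1). Both groups shared the strain, the marrow culture and the challenge, so the comparison is of genotype under hypoxia and starvation, and cells in regular growth medium were not analysed here. Separate animals are not stated for the libraries within a genotype, so p-values reflect library-to-library spread, possibly technical.

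Macrophages make these cytokines when pathogens, damaged cells or metabolic stress activate transcription factors such as NF-kB and AP-1. TNF and IL-1 pass the alarm to neighbouring cells, IL-6 and oncostatin M act through receptors that share the gp130 subunit, and IL-12 and IL-23 instruct lymphocytes. IL-10 and the IL-1 receptor antagonist hold the response back. Several of the transcripts are short-lived, because AU-rich elements in their 3′ untranslated regions recruit decay factors such as tristetraprolin (Zfp36).

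The table gives a mean normalized count per group, that is, reads divided by a factor for library depth and averaged over 3 libraries, beside the test of genotype. Integer reads in each library were solved from these means for 26287 genes, all 10 cytokine genes included. The libraries held between about 25260000 (Flt1+/- C) and 41660000 (Flt1+/- A) reads. The letters A, B and C name them within a group in order of falling depth factor, with no tie to replicate numbers. Flt1 itself had 6.66 ± 3.32 (wild type) and 12.7 ± 4.47 (Flt1+/-) normalized counts (SD, n = 3 each), with 0.641 as the authors' deposited adjusted p, so it does not check the genotype labels. Reads of mitochondrial mt-Co2 were absent (listed at 0) from wild type C and from Flt1+/- B and C, against 4070 to 4751 normalized counts in the others, which divides the libraries into 2 sets across genotype. Macrophage markers were abundant: Csf1r, which encodes the CSF-1 receptor, had group means of 45697 and 31060 in wild type and Flt1+/-, and it was 1 of 4 lower among 11 markers tested, with 0 higher. Neutrophil and precursor markers were higher in Flt1+/-, in 6 of 8 tested, and the summed level of the 12 in the table was 905 to 1093 in wild type and 1979 to 2475 in Flt1+/- libraries. No neutrophil marker was at 0 in every library. Elane, Prtn3 and Ctsg were at 0 in all wild type libraries. Their Flt1+/- means were only 0.663, 2.36 and 0.815 normalized counts, without an adjusted p. Mpo, also without an adjusted p, had 4.96 in wild type and 3.09 in Flt1+/-. Of the remaining lists, monocyte markers gave 2 of 3 higher, dendritic cell markers 1 of 5 lower and T and NK cell markers 1 of 2 lower. That 1 was Cd4, with means of 711 and 499, while Cd3d had 0.308 and 3.98 and Cd3e 0.671 and 0. Mast cell markers gave 0 of 1 called and fibroblast markers 1 of 6 higher. These marker counts are from the authors' deposited test at an adjusted p of 0.05. Over all 15789 genes it tested, 3.52% were lower and 2.51% higher. Summed B and plasma cell markers (5 of 6 recovered) were 294 to 491 and 24.8 to 49.1. Neutrophils and other blood cells also make several of these cytokines, and the part of such cells in the results below was not tested. In bulk RNA, fewer cells of a type and less RNA per cell cannot be told apart.

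The starts of 4 genes are shown, Tnf, Il1b and Il1rn as measurable members and Il6 as the one with a kappaB match. Il1a and Il18 are also measurable and have an entry, but only their matches are described. The capitals mark exact matches, on either strand, to the kappaB consensus of NF-kB, to AP-1 as TGACTCA or TGAGTCA, to the hypoxia response core as ACGTG or GCGTG, to STAT as TTCNNNGAA, or to TATAAA. Sequences are RefSeq's for build GRCm38.p6 (mm10), from 250 bases before to 50 after a gene start, and 7 of the 10 genes had an entry; Osm, Il10 and Il23a did not. Tnf lies on the minus strand at chr17:35201958-35202257, Il1b on the minus strand at chr2:129371090-129371389, Il1rn on the plus strand at chr2:24336610-24336909 for the first of 3 starts, and Il6 on the plus strand at chr5:30012864-30013163.
Tnf: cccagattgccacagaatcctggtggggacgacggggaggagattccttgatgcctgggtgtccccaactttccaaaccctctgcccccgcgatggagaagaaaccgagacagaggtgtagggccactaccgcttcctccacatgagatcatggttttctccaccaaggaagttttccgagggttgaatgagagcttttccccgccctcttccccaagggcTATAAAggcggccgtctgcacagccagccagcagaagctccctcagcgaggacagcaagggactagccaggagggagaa
Il1b: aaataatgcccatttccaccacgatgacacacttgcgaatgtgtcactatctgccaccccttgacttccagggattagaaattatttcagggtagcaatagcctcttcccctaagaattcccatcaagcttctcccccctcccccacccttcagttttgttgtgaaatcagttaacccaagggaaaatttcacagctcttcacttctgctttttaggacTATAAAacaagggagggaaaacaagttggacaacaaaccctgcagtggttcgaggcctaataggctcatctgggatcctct
Il1rn: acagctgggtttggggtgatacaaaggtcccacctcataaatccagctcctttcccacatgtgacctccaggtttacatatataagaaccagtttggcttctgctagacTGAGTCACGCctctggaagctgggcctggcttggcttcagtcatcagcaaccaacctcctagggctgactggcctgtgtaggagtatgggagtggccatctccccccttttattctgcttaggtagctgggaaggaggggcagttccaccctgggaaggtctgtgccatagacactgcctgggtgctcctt
Il6: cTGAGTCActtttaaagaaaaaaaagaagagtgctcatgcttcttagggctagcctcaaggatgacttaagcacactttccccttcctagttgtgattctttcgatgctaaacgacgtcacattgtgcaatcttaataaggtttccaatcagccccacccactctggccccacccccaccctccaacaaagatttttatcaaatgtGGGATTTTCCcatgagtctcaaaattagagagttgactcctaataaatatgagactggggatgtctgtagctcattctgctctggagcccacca

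The Tnf and Il1b starts each hold TATAAA, at 29 and 31 bases before the start, as does Il1a at 32. Il18 holds it on the other strand, 175 bases before its RefSeq start. The last of the 3 Il1rn starts, not shown, holds it 15 bases after the start, also on the other strand. Anywhere in the window, 13.6% of 32851 promoters hold it. Among these windows the kappaB consensus was matched only at Il6, where 4.51% of promoters have a match. AP-1 was matched at Il6, at Il1a and at the first start of Il1rn, where it overlaps a hypoxia response core; 5.20% and 43.8% of promoters hold these motifs. None of the windows of these 7 genes held the STAT letters, found in 8.30% of promoters. A match is a description of letters, and the read counts do not say which of the 3 Il1rn starts was used.

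Tnf and Il23a hold the AU-rich nonamer TTATTTATT in their longest annotated 3′ untranslated region. Tnf has 5 matches, some overlapping, which 16 of 12620 tested genes equal or exceed, and Il23a has 1. The sites below start 10 bases before the first nonamer, which begins at base 438 of 764 in Tnf and 594 of 657 in Il23a. Capitals mark all nonamers within the stretch, which are 3 overlapping ones in Tnf and 1 in Il23a.
Tnf: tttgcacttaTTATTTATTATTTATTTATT
Il23a: tagatgatggTTATTTATTctatttataag

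The shorter pentamer ATTTA occurred 8 times in Tnf, 10 in Il6, 6 each in Osm, Il10, Il12b and Il23a, 4 in Il1b, 3 in Il1a, 1 in Il18 and 0 in Il1rn. Per kb this is 10.5 for Tnf, 9.13 for Il23a, 8.71 for Il1b, 8.5 for Il10, 7.53 for Il12b, 6.0 for Il6, 5.9 for Osm, 2.99 for Il18 and 2.72 for Il1a. The median was 1.19 over tested genes and 1.2 over those called lower. The members called lower by the deposited test include the highest (Tnf) and the lowest (Il1rn) density of the 10, and uncalled members lie between. A link between these elements and the calls was not tested, and the search was added after the values were seen.

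By the authors' deposited test, at an adjusted p of 0.05, 3 of the 10 genes were lower in Flt1+/- libraries (Osm, Tnf and Il1rn) and 0 were higher. Over all 15789 genes tested, 3.52% were lower and 2.51% higher. The test gave an adjusted p for 7 of the 10; Il6, Il12b and Il23a had too few reads. From the authors' deposited table the 7 had a median log2 fold change of -0.28, against -0.01 over all tested genes. limma on the recovered counts called Osm and Tnf lower and none higher among the same 7, where 1.35% of 15077 genes were called lower and 0.803% higher. In 4 of these 7 every Flt1+/- library lay below every wild type library (Osm, Tnf, Il1rn and Il1a), as in 12.3% of all genes fitted, and in 1, Il18, above, as in 11.2%.

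**Figure D1:**
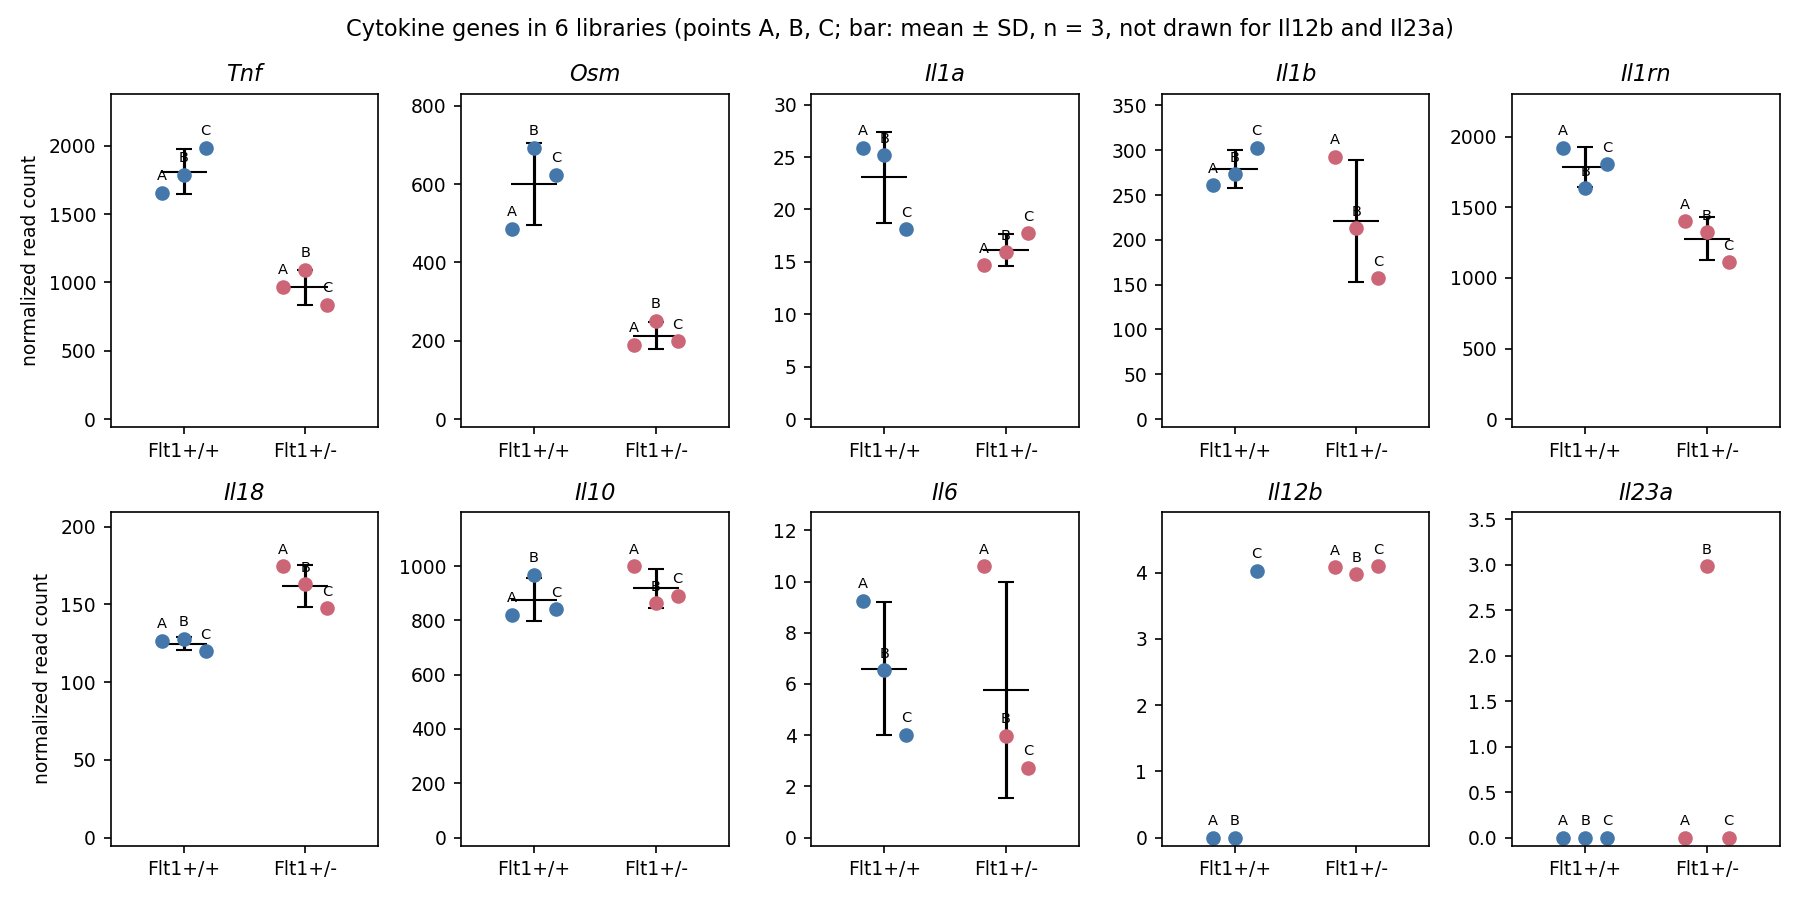
Normalized read counts of the 10 genes (vertical axes, each from 0) in the 3 wild type and 3 Flt1+/- libraries, with the mean and SD of each group as bars except for Il12b and Il23a. Osm and Tnf lie lower in every Flt1+/- library, Il10 overlaps between the groups, and Il12b and Il23a have at most 5 reads in a library.

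Osm (ENSMUSG00000058755, chromosome 11, 4236420 to 4241026) encodes oncostatin M, a gp130 cytokine of activated macrophages and neutrophils. It had 486, 693 and 624 normalized counts (wild type A, B and C) and 189, 251 and 199 in Flt1+/- A, B and C. The lowest wild type library was thus well above the highest Flt1+/- library, and the group means were 601 ± 105 and 213 ± 33.4 (SD, n = 3 each). Osm fell to 35.5% of its wild type level. In the authors' deposited table its log2 fold change was -1.28 (standard error 0.18, adjusted p 1.74e-10). The log2 difference by limma was -1.49 (standard error 0.18, adjusted p 0.0158). The limma call was lost without wild type B (0.0872), wild type C (0.0853) or Flt1+/- C (0.0761), with differences of -1.38 to -1.63 over the 6 omissions of 1 library.

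Tnf (ENSMUSG00000024401, chromosome 17, 35199381 to 35202007) encodes tumour necrosis factor. Its normalized counts were 1657, 1786 and 1985 in wild type A, B and C and 969, 1092 and 835 in Flt1+/- A, B and C. The groups did not overlap, and their means were 1809 ± 165 and 965 ± 128. Tnf fell to 53.4% of its wild type level. In the authors' deposited table its log2 fold change was -0.83 (standard error 0.14, adjusted p 4.22e-07). By limma the log2 difference was -0.91 (standard error 0.13, adjusted p 0.0221). That call held without Flt1+/- B (0.0313) and was lost without any other library, at adjusted p of 0.0611 (wild type A), 0.114 (wild type B), 0.11 (wild type C), 0.0613 (Flt1+/- A) and 0.0782 (Flt1+/- C). The differences in these omissions were -1.0 to -0.81. Over all genes limma called 41 to 133 in these 5 omissions, 337 without Flt1+/- B and 324 with all libraries.

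The IL-1 system holds the agonists Il1a and Il1b and the antagonist Il1rn, which binds the same receptor without signalling. Il1rn (ENSMUSG00000026981, chromosome 2, 24336853 to 24351494) had 1923, 1638 and 1805 normalized counts (wild type A, B and C) and 1401, 1326 and 1111 in Flt1+/- A, B and C. The groups did not overlap, with means of 1789 ± 144 and 1280 ± 151. In the authors' deposited table its log2 fold change was -0.45 (standard error 0.13, adjusted p 0.0192). limma did not call the difference, at -0.49 (standard error 0.12, adjusted p 0.104), nor in any of 13 alternatives (0.0979 to 0.305).

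Il1b (ENSMUSG00000027398, chromosome 2, 129364570 to 129371139) had 261, 273 and 303 normalized counts (wild type A, B and C) and 293, 213 and 157 in Flt1+/- A, B and C. Flt1+/- library A lay among the wild type values, while B and C lay below them. The deposited adjusted p was 0.615, and limma gave a difference of -0.38 with a 95% interval of -0.92 to 0.16 and an adjusted p of 0.462. The limma difference was -0.60 without Flt1+/- A and -0.16 without Flt1+/- C, with adjusted p of 0.216 and 0.751. Il1b was therefore not shown to differ, and a fall of the size of that of Tnf lies at the edge of the interval.

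Il1a (ENSMUSG00000027399, chromosome 2, 129299610 to 129309972) had 13 to 28 reads a library. Its normalized counts were 25.9, 25.2 and 18.1 in wild type A, B and C and 14.7, 15.9 and 17.7 in Flt1+/- A, B and C. The groups did not overlap, but wild type C and Flt1+/- C were 18.1 and 17.7. Adjusted p was 0.718 (authors' deposited table) and 0.472 (limma), with a difference of -0.48 and an interval of -1.18 to 0.22. Il1a overlaps Gm14023 on the other strand, at means of 12.2 and 11.3 normalized counts, and the use of strand in counting is not given in the sources used here, so part of the Il1a reads is uncertain. Il1bos, opposite Il1b, had means of 1.55 and 2.02.

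Il18 (ENSMUSG00000039217, chromosome 9, 50554827 to 50581840) encodes an IL-1 family cytokine that, like IL-1 beta, is cut to its active form by caspase-1. It was the one measurable gene of the set with higher values in every Flt1+/- library, at 174, 163 and 147 normalized counts in A, B and C against 127, 128 and 120 in wild type A, B and C. The means were 125 ± 4.37 and 162 ± 13.6. The deposited adjusted p was 0.355. limma gave a difference of 0.37 with a 95% interval of 0.03 to 0.70, an unadjusted p of 0.0355 and an adjusted p of 0.256, so the difference did not pass over all genes, and its adjusted p was 0.16 to 0.539 in 13 alternatives. Il18 overlaps Bco2 (means of 19.7 and 13.1 normalized counts) and Tex12 (0.622 and 1.78) on the other strand.

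Il10 (ENSMUSG00000016529, chromosome 1, 131019845 to 131024974), the anti-inflammatory cytokine that signals through STAT3, overlapped between the groups. Its normalized counts were 821, 968 and 842 in wild type A, B and C, and 999.6, 863 and 891 in Flt1+/- A, B and C. The deposited adjusted p was 0.915. limma gave a difference of 0.07 with a 95% interval of -0.19 to 0.33 and an adjusted p of 0.81, so a fall as large as that of Tnf lies outside the interval.

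**Figure D2:**
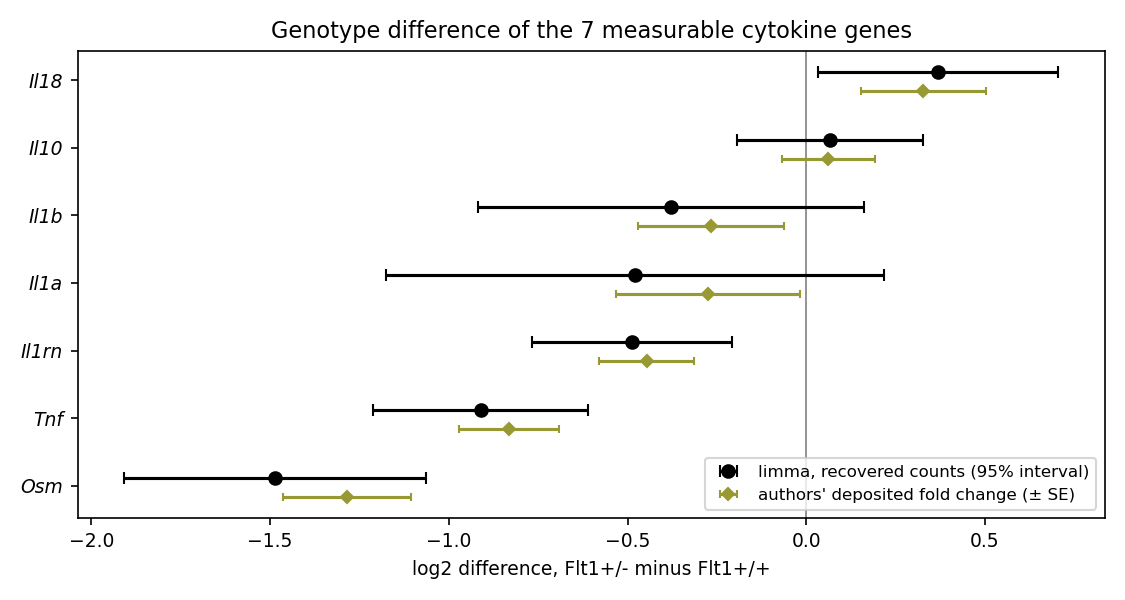
Log2 difference between Flt1+/- and wild type libraries (horizontal axis) for the 7 genes with enough reads, by limma with its 95% interval (black) and as the authors' deposited fold change with its standard error (olive). Osm, Tnf and Il1rn lie below 0 and Il18 above it, with limma intervals that exclude 0, and Il10 is centred near 0. The intervals are not adjusted over all genes, and limma did not call Il1rn (adjusted p 0.104) or Il18 (0.256).

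Il6 (ENSMUSG00000025746, chromosome 5, 30013114 to 30019981) was close to the detection limit in both groups. It had 10, 7 and 4 reads in wild type A, B and C and 13, 4 and 2 in Flt1+/- A, B and C, and the deposited unadjusted p was 0.868. The lowest values of both groups were near the floor of 3 reads, which corresponds to 2.45 to 4.10 normalized counts depending on the library.

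Il12b, the subunit shared by IL-12 and IL-23, had 0, 0 and 4 reads in wild type A, B and C and 5, 4 and 3 in Flt1+/- A, B and C. Il23a, the other subunit of IL-23, was listed at 0 in every library but Flt1+/- B, which had 3 reads. The deposited unadjusted p values were 0.353 and 0.472, and a difference was not detectable at this depth. Il12b (ENSMUSG00000004296) lies on chromosome 11 at 44400063 to 44414033 and Il23a (ENSMUSG00000025383) on chromosome 10 at 128296139 to 128298752. The floors cover counting error only, since reads without molecular identifiers are not independent molecules.

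Levels of different genes were set against each other per kb of annotated exon. In wild type libraries the order of mean levels per kb was Tnf (1104 ± 101), Il10 (670 ± 60.7), Il1rn (323 ± 25.9), Osm (264 ± 46.3), Il1b (146 ± 11.3), Il18 (121 ± 4.24) and Il1a (11.7 ± 2.18), as SD over 3 libraries. Tnf was first and Il10 second in every wild type library, while Il1rn and Osm, neighbours within their spread, exchanged places in library B. In Flt1+/- libraries the mean order was Il10 (701 ± 55.1), Tnf (589 ± 78.4), Il1rn (231 ± 27.2), Il18 (157 ± 13.2), Il1b (116 ± 35.8), Osm (93.9 ± 14.7) and Il1a (8.16 ± 0.783). Il10 was first in A and C and Tnf in B. Il1b and Osm overlapped there, with Osm in place 6 in A and B and in place 5 in C.

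Ratios within a library do not depend on the scaling between libraries. The ratio of Il10 to Tnf, both per kb, was 0.62, 0.678 and 0.531 in wild type A, B and C and 1.29, 0.988 and 1.33 in Flt1+/- A, B and C. The mean ratio was 0.61 ± 0.0742 in wild type and 1.2 ± 0.189 in Flt1+/-, with no overlap. Osm to Tnf was 0.212 to 0.28 in wild type and 0.141 to 0.172 in Flt1+/-, so Osm was lower relative to Tnf in each Flt1+/- library. Il1b to Tnf was 0.131 to 0.135 in the 3 wild type libraries and 0.26, 0.167 and 0.162 in Flt1+/- A, B and C. Il18 to Il1b was 0.731 to 0.899 and 1.10 to 1.74. The ratio of antagonist to agonist, Il1rn to Il1b, overlapped between the groups at 2.05 to 2.54 and 1.65 to 2.44. An exact permutation test of 3 against 3 libraries cannot give a two-sided p below 0.1, so these ratios carry no test, and they were chosen after the values were seen.

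**Figure D3:**
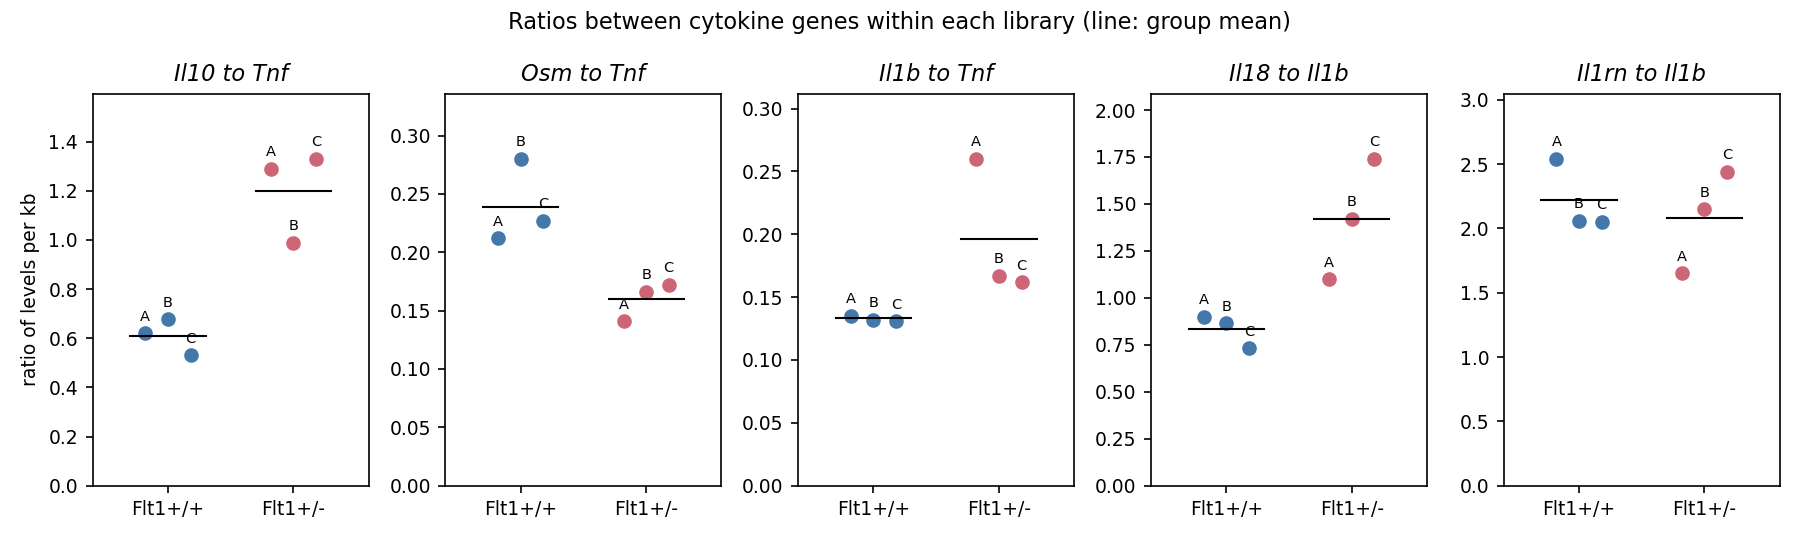
Ratio of the levels per kb of 2 genes in each library (vertical axes from 0), by genotype, with the group mean as a line. Il10 to Tnf, Il1b to Tnf and Il18 to Il1b lie higher and Osm to Tnf lower in every Flt1+/- library, while Il1rn to Il1b overlaps.

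Within the sets marked by mt-Co2, which hold at most 2 libraries of a genotype and allow no test, the log2 difference of Osm was -1.61 in the set with mt-Co2 reads and -1.47 in the other. That of Tnf was -0.83 and -1.05, and that of Il1rn -0.34 and -0.57. Il18 was at 0.45 and 0.37 and Il10 at 0.17 and 0.06. Il1b was at 0.13 and -0.73, so its sign differed between the sets. With the set as a term in the limma fit, the adjusted p was 0.022 for Osm, 0.0291 for Tnf and 0.483 for Il1b.

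For each gene called by the deposited test, the 3 genes with the closest profile over the 6 libraries were found among 11855 genes with a mean of at least 50 normalized counts. The measure was the root mean square distance of log2 values after centring each gene. Closest to Osm were Rgs11, a regulator of G protein signalling (distance 0.114), the chemokine Ccl4 (0.122) and Dusp1, a phosphatase of MAP kinases (0.175). Closest to Tnf were the kinesin gene Kifc2 (0.0616), Leng9 (0.062) and the small GTPase gene Rab7b (0.0805). Closest to Il1rn were Efcab14 (0.0381), the kinase gene Sgk1 (0.0486) and Fam171a1 (0.0539). Places depend on which gene is the reference. Tnf was at place 79 from Osm and Osm at place 734 from Tnf (distance 0.325). Il1rn was at place 250 from Tnf and Tnf at place 2264 from Il1rn (0.252). Il1rn was at place 722 from Osm and Osm at place 10733 from Il1rn (0.565). These distances are a description of 6 libraries.

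**Figure D4:**
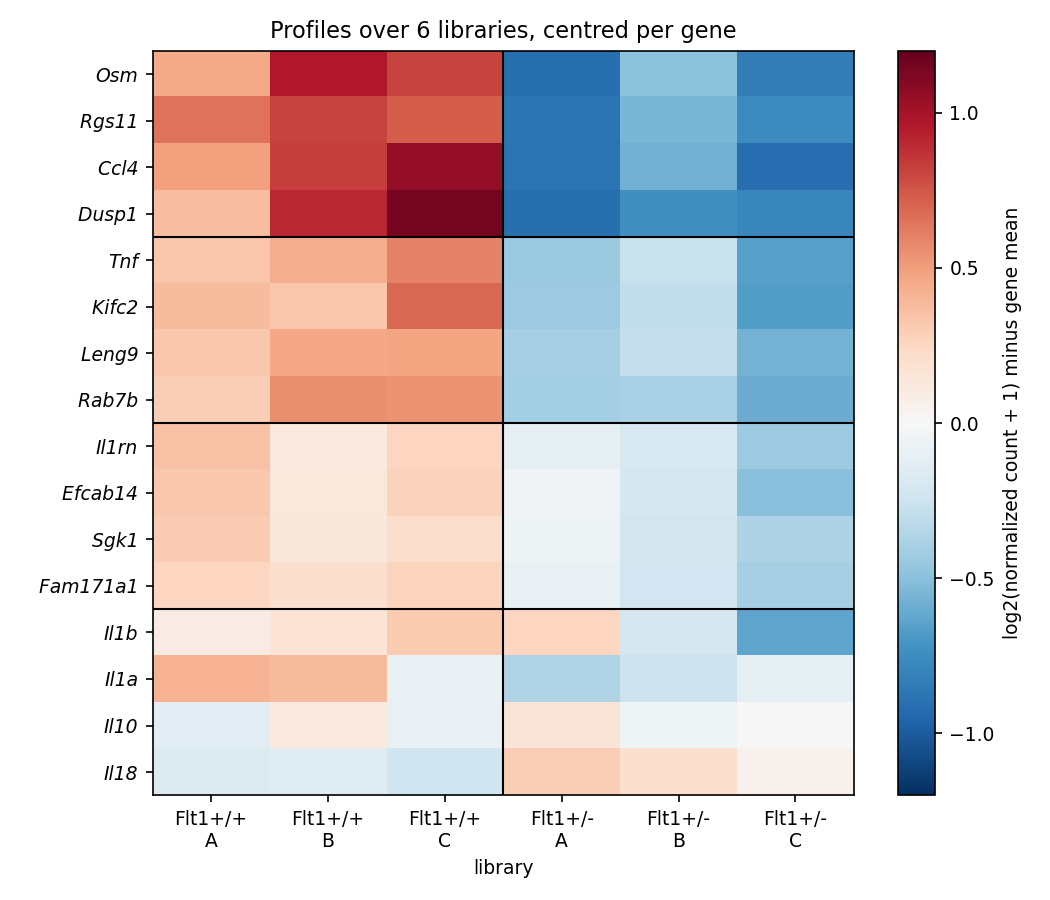
Log2(normalized count + 1) minus the gene's mean over 6 libraries (colour scale) for Osm, Tnf and Il1rn, each above its 3 closest genes, and for Il1b, Il1a, Il10 and Il18. Among the 7 cytokine genes Osm has the widest contrast between wild type (red) and Flt1+/- (blue), Il1b in Flt1+/- A is on the wild type side, and Il18 has the opposite sign.

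Receptors and decoys of these cytokines gave 2 genes lower and 1 higher among 16 tested by the deposited test, with a median log2 fold change of -0.06. Beside this list and those below, that test called 3.52% of all 15789 genes tested lower and 2.51% higher. The median over all of those genes was -0.01. Lifr, a gp130 partner that binds leukaemia inhibitory factor, fell from 271 ± 10.9 to 134 ± 15.5 normalized counts (SD, n = 3 each; deposited adjusted p 6.51e-06, limma 0.022). Il18bp, the secreted IL-18 binding protein, went from 338 ± 37.8 to 225 ± 23.6 and was called by the deposited test only (0.0278; limma 0.107). Il18rap, the accessory chain of the IL-18 receptor, rose from 4.41 ± 1.86 to 35.2 ± 6.09 (5.4e-05; limma 0.0221). Il18r1, the ligand-binding chain of that receptor, had means of at most 0.933. The TNF receptors Tnfrsf1a (deposited adjusted p 0.306) and Tnfrsf1b (0.791) were not called, nor were Il10ra (0.934), Il6ra (0.792), Il6st, which encodes gp130 (0.48), or the oncostatin M receptor gene Osmr, which had only 21.9 ± 9.26 and 20.9 ± 3.72 normalized counts.

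Among 12 genes of cytokine processing and release, 1 was lower and 0 higher, with a median of -0.02. In so short a list 1 call says little about the list, beside 3.52% lower over all tested genes. Nlrp3, the inflammasome sensor that activates caspase-1, fell from 513 ± 73.7 to 264 ± 27.9 normalized counts (deposited adjusted p 1.87e-05, limma 0.0319). Casp1 stood at 4301 ± 235 and 4284 ± 608, with a deposited adjusted p of 0.994, and Adam17, which sheds TNF from the cell surface, at 8305 ± 171 and 8080 ± 969.6 (0.95).

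Of 16 genes that govern the decay or stability of cytokine mRNA, 1 was lower and 1 higher, with a median of -0.12. Here too, 1 call each way says little about the list, beside 3.52% lower and 2.51% higher over all tested genes. Dusp1, which limits the p38 signal that stabilises such transcripts, fell from 2272 ± 593 to 726 ± 42.5 (deposited adjusted p 1.03e-12, limma 0.0158). Hnrnpd, an AU-rich element binding protein, rose from 2208 ± 70.4 to 3130 ± 177 (0.000126; limma 0.0319). Zfp36, tristetraprolin, stood at 3618 ± 1125 and 2403 ± 541 and was not called (0.188; limma 0.333).

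Other cytokine genes gave 1 lower and 0 higher among 22 tested, with a median of -0.14. That is near the share over all tested genes, of which 3.52% were lower. Tnfsf9, the ligand of 4-1BB, was at 68.8 ± 5.45 and 21.9 ± 13.3 normalized counts and was called by the deposited test only (0.0145; limma 0.13). Ebi3, Ltb and Tgfb1 were abundant and not called, with deposited adjusted p of 0.768, 0.899 and 0.899.

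Genes that TNF and IL-1 are known to induce were lower in 10 of 22 tested and higher in 1, and their median deposited log2 fold change was -0.31. limma called 6 of 20 lower and 0 higher, and between 0 (without wild type B or without Flt1+/- C) and 9 lower over its 13 alternatives. Cxcl2, a neutrophil-attracting chemokine, fell from 1120 ± 479 to 171 ± 31.8 normalized counts (limma adjusted p 0.0192). The chemokine Ccl4 fell from 3601 ± 688 to 1193 ± 162 (limma 0.0103) and Ccl3 from 5493 ± 995 to 2517 ± 82.9 (limma 0.0171). Ier3, an immediate early gene, fell from 1855 ± 487 to 469 ± 139 (limma 0.0178), and Ptgs2, the inducible cyclooxygenase, from 271 ± 65.2 to 76.8 ± 8.68 (limma 0.0143). Tnfaip3, an inhibitor of NF-kB signalling, fell from 2901 ± 104 to 1995 ± 163 (limma 0.0356). Nfkbia and Nfkbie, chosen after their values were seen, were called lower by the deposited test only (adjusted p 0.000464 and 0.00502; limma 0.057 and 0.11). The 1 higher call was Nfkbiz (authors' deposited adjusted p 0.0477, no limma value), chosen after its value was seen, and that call was lost at a threshold of 0.01 and with Benjamini-Hochberg adjustment over every deposited p. Genes induced by the IL-6 family and IL-10 gave 3 lower and 0 higher among 15, with a median of -0.25. Socs3, a feedback inhibitor of gp130 signalling, fell from 407 ± 94.0 to 152 ± 32.9 (deposited adjusted p 1.77e-06, limma 0.0313), while Fos and Nfil3 were called by the deposited test only (limma 0.111 and 0.0938). All 6 lists were drawn up with earlier results of these libraries known, so their counts are not independent of them.

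**Figure D5:**
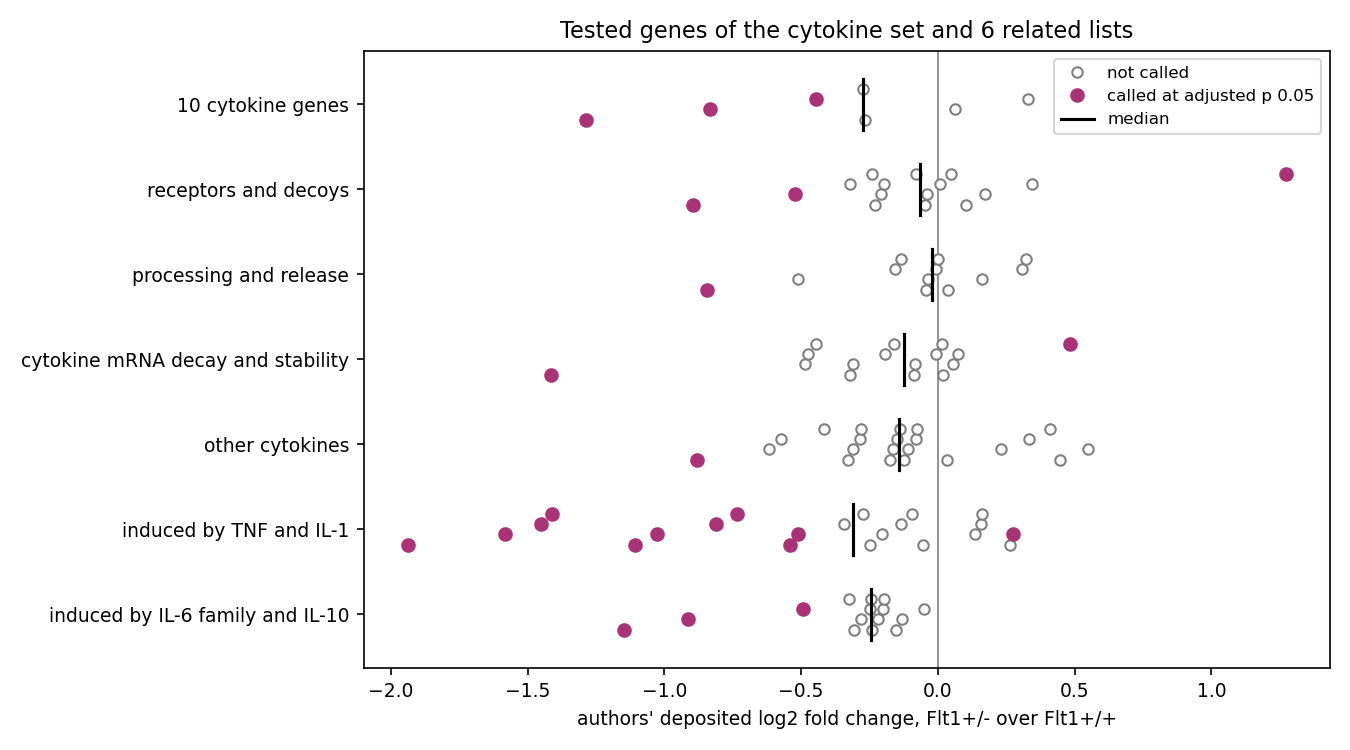
Authors' deposited log2 fold change (horizontal axis, Flt1+/- over wild type) of each tested gene in the cytokine set and 6 related lists, filled where called at an adjusted p of 0.05, with the list median as a bar. The list induced by TNF and IL-1 has 10 of its 22 genes called lower, and the receptors and processing genes have medians near 0.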

How the data were processed

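Total RNA was stripped of rRNA and sequenced as stranded libraries, per the labels' protocols. FastQC, TopHat 1.0.0, Cufflinks and build mm10 are named in the submitters' processing notes without roles; the read counter is not given in the sources used here. Per the file headers, the deposited table has the columns of a DESeq2 result. Its signal columns are the authors' group means of read counts divided by size factors. Its log2 fold changes, standard errors, scores (fold change over standard error), p-values and adjusted p-values are the authors' own. Fold changes are drawn towards 0, and 10989 genes have no adjusted p.

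Called genes passed an adjusted p of 0.05 and averaged 1 or more normalized counts. Counts per library were solved from each group mean as 3 integers, one per library, multiplied by that library's fixed step, uniquely in both groups for 26287 genes (98.2%); the rest, abundant genes among them, were not solved. Size factors recomputed as median ratios lay within 0.144% of the steps. Both steps were tested on simulated data. limma 3.58.1 (R 4.3.3) was fitted with an intensity trend to log2(normalized count + 1) of 15077 genes with a mean of at least 10, with Benjamini-Hochberg adjustment over all of them. Differences on this scale understate those of low genes. Exon lengths, 3′ untranslated regions and gene overlaps came from GENCODE M21 and promoters from RefSeq, both on the build of the files. Member coordinates were identical between GENCODE and the files, while RefSeq starts can differ from them. The Il18 promoter window, 50554450 to 50554749, ends before the GENCODE start at 50554827. Python 3.11.15 was used otherwise.

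Alternatives were other thresholds, pseudocounts, filters and scalings, voom weights, a library set term and omission of each library. The genes, lists and tests were chosen with earlier results of these data known; the TTATTTATT and ATTTA searches and the ratios were added after the values were seen. The text names all 10 members, up to 6 genes a list that the deposited test called (in order of adjusted p), uncalled list genes chosen for their role, and the 3 genes closest to each called member. Nfkbiz, Nfkbia and Nfkbie were chosen after their values were seen.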

Additional observations from a re-analysis of the deposited data

How the results depend on the processing

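The deposited test called 3 members lower under every alternative (another minimum mean, an adjusted p of 0.1, adjustment over every deposited p-value) except a threshold of 0.01, which left Osm and Tnf. In the 6 related lists it called 21 genes, and 17 to 22 under the alternatives. limma called Osm and Tnf lower with each other pseudocount, filter, scaling, voom weights or a library set term. With 1 library left out it called between 0 and 2 members, and between 0 and 13 genes of the 6 lists against 12 with all libraries. None of the 7 members in the limma fit reversed its sign in the alternatives run. Il6 and Il12b were fitted only with a minimum mean of 1, and Il23a in none. No paired analysis was possible because the recovered libraries carry no replicate numbers. Depth limits Il6, Il12b and Il23a, which have at most 13 reads in a library, and Il1a, with 13 to 28. The size of Il1b rests on Flt1+/- libraries A and C, and the cause was not tested.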
